A study of Mus musculus with 8 samples.

Results

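The 7 genes described here, Chat, Slc18a3, Slc5a7, Lhx8, Gbx1, Ngfr and Ecel1, are genes of the cholinergic neurons of the basal forebrain, and all 7 were found by name among the 54532 genes of the deposited counts table. They were chosen by their genotype difference and by how they varied together over the mice in these same counts, so both are given below as descriptions and neither is tested. Bulk RNA was sequenced from the cortex of 8 singly housed C57BL/6 mice aged 8 mo, 4 PS19 and 4 Adrb1+/m;PS19, with 1 library per mouse. PS19 mice carry a transgene for human tau (the 1N4R isoform with the P301S mutation) under the mouse prion protein promoter, and the other group had in addition 1 copy of the m allele of Adrb1, a knock-in of A187V in the β1-adrenergic receptor. Both groups thus carry mutant tau, and mice without it were not analysed here. The study used males unless it said otherwise. The question was which genes differed in expression in Adrb1+/m;PS19 vs. PS19 mice.

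Acetylcholine in the cortex comes mostly from axons of large neurons in the basal forebrain, whose cell bodies lie beneath the cortex, in the medial septum, the diagonal band and the basal nucleus. These neurons make the transmitter from choline and acetyl-CoA, load it into vesicles, recover choline after its release, and depend through life on neurotrophins. They promote cortical arousal in wakefulness and in REM sleep and are lost early in Alzheimer's disease. Most mRNA of such a neuron stays in its cell body and not in its cortical axons. Cholinergic interneurons of the striatum, next to the basal forebrain, share the transmitter genes and Lhx8, and a few interneurons of the rodent cortex itself contain Chat.

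The members sit on 6 chromosomes of GRCm38 and all 7 are transcribed from the minus strand, as are 49.6% of the genes tested. Chat (ENSMUSG00000021919) spans chr14:32408203-32465989, and Slc18a3 (ENSMUSG00000100241, chr14:32462438-32464850) lies inside it, in an arrangement that animals as distant as worms share and that is called the cholinergic gene locus. In the GENCODE annotation of GRCm38, Slc18a3 sat in an intron of Chat, 956 bases from the nearest Chat exon on one side and 395 bases on the other, and no exonic base was shared, so in that annotation the exons of each gene are its own. Slc5a7 (ENSMUSG00000023945) lies at chr17:54273590-54299034, Lhx8 (ENSMUSG00000096225) at chr3:154306294-154330659 and Gbx1 (ENSMUSG00000067724) at chr5:24502757-24527202. Ngfr (ENSMUSG00000000120) lies at chr11:95568818-95587735 and Ecel1 (ENSMUSG00000026247) at chr1:87147655-87156521. None of these 5 shared exonic bases with another annotated gene.

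RefSeq promoter windows of GRCm38.p6, 300 bases each from 250 bases before the transcription start to 50 bases after it, were matched for 6 of the 7 members. Those of 4 members are printed 5′ to 3′ along the gene: those of the transmitter genes, because these varied together over the mice, and that of Lhx8, the transcription factor with the clearest separation of the genotypes. Capitals mark matches to the 3 motifs searched on both strands, which were TAATTA, the core of sites for LIM homeodomain factors such as Lhx8, the cAMP response element TGACGTCA, and its half-site TGACG, which is part of the full element. β1-adrenergic receptors raise cAMP, which acts on such elements through CREB.
Chat promoter (chr14:32465860-32466159, minus strand): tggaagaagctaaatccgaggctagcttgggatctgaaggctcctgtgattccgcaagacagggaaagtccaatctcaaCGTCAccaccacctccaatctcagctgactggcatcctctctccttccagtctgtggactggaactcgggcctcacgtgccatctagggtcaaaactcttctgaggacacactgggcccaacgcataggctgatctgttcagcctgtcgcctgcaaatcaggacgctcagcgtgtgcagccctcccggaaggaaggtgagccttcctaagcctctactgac
Slc18a3 promoter (chr14:32464801-32465100, minus strand): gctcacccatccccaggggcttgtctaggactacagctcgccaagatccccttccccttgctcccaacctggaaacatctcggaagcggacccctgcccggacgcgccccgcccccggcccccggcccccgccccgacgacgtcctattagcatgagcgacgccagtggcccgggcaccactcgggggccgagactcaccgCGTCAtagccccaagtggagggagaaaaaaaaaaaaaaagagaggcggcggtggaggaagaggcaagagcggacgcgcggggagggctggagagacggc
Slc5a7 promoter (chr17:54298985-54299284, minus strand): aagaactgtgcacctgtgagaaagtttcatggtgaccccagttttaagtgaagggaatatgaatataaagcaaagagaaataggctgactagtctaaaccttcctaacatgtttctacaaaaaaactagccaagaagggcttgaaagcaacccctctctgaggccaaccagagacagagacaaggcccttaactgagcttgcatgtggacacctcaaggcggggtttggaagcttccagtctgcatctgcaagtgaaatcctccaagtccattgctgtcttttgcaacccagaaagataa
Lhx8 promoter (chr3:154330511-154330810, minus strand): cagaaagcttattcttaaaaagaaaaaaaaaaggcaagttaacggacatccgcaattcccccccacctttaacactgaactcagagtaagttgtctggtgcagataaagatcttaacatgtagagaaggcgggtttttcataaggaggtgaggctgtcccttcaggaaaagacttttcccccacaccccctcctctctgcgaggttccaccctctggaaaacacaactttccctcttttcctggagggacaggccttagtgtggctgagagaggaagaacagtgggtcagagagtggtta

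The half-site was present once in the Chat window, 171 to 167 bases before the start, and once in the Slc18a3 window, 49 to 45 bases before the start, both on the opposite strand. Of all 32851 promoter windows, 20.8% held the half-site, 1.79% the full element and 5.29% TAATTA. Neither TAATTA nor the full element was found in any of the 6 windows, which says only that these letters are not in these 300 bases. The GC content of the 6 windows ran from 44.7% for Slc5a7 to 71.7% for Ngfr, with 55.7% for Chat and 67.0% for Slc18a3, against a median of 52.7% over all windows.

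In all, the libraries held 14653222 to 21223754 counts in the PS19 mice and 16865651 to 20802158 in the Adrb1+/m;PS19 mice. Counts of 17195 genes that passed edgeR's filter on low counts, all 7 members among them, were expressed as CPM, a gene's count relative to the total of its library on a common scale, after adjusting the totals by TMM factors between 0.990 and 1.01. By the quasi-likelihood test of edgeR, 481 genes (2.8%) reached an unadjusted p-value under 0.05 and none did after Benjamini-Hochberg adjustment, where the lowest value was 0.9996. DESeq2's Wald test gave 555 such genes and also none after adjustment. Adrb1 itself had 36.8 ± 4.19 CPM in PS19 and 35.0 ± 3.71 CPM in Adrb1+/m;PS19 mice (SD, n = 4 each), and counts per gene cannot show the base change, so they do not check the genotype labels. The study used littermates as controls, so the genotypes may share litters, but the labels do not assign mice to litters. Errors and p-values measure only the spread between these mice.

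The 7 genes were weakly expressed, between 12 and 601 counts per mouse. At these counts the counting error alone, as a share of the mean count, was 4.98% for Ecel1, 9.51% for Chat and 17.3% for Gbx1, while the mice of a genotype differed by 20.4% to 58.5% of their mean. Per kilobase of transcript and averaged over the 8 mice, Ecel1 stood highest, at 6.63 ± 1.91 CPM per kb (SD, n = 8), and its range did not overlap that of the next gene. Slc5a7 (1.92 ± 0.654), Ngfr (1.58 ± 0.600), Slc18a3 (1.44 ± 0.606), Chat (1.33 ± 0.452), Lhx8 (1.01 ± 0.484) and Gbx1 (0.533 ± 0.298) followed, and each of these overlapped with its neighbours in that order. For scale, Drd1, a dopamine receptor gene of striatal projection neurons, stood at 13.5 CPM per kb and Lhx6, the closest relative of Lhx8 and a factor of cortical interneurons, at 4.94.

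All 7 members had a higher mean in Adrb1+/m;PS19 mice, with log2 fold changes (Adrb1+/m;PS19 over PS19) of 0.27 to 1.27 and a median of 0.69, where 50.2% of all genes tested were higher and their median was 0.00046. All but Ecel1, 6 of 7, had an unadjusted p-value under 0.05, against 2.8% of the genes tested at that threshold in either direction. Only Lhx8 had CPM in every Adrb1+/m;PS19 mouse above every PS19 mouse, as had 1.02% of the genes tested. Since this contrast chose the genes, nothing is read from these counts, and no member passed after adjustment. In bulk tissue more cells of a type, more RNA per cell and more of a neighbouring region in the dissected piece cannot be told apart.

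Values of the 4 PS19 mice are given below in the order m677, m668, m665 and m659, and those of the 4 Adrb1+/m;PS19 mice in the order m671, m661, m660 and m658, and each log2 fold change is given ± its standard error. Chat encodes choline acetyltransferase, which makes acetylcholine. It had 2.45, 6.42, 5.24 and 5.90 CPM in PS19 mice and 8.40, 5.46, 6.72 and 9.51 CPM in Adrb1+/m;PS19 mice, means of 5.0 ± 1.77 and 7.52 ± 1.79 (SD, n = 4 each) and a 1.5-fold difference (log2 fold change 0.59 ± 0.25). PS19 mouse m677 was low and m661 lay among the PS19 mice, so the genotypes overlapped. Slc18a3 encodes the vesicular acetylcholine transporter. Its values were 1.10, 4.14, 2.03 and 2.95 CPM in PS19 mice and 4.56, 3.74, 3.47 and 5.77 CPM in Adrb1+/m;PS19 mice, a 1.73-fold difference (log2 fold change 0.79 ± 0.31). Here m668 lay above 2 of the 4 Adrb1+/m;PS19 mice. Slc5a7 encodes the high-affinity transporter that brings choline back into the terminal. It had 6.61, 12.9, 6.94 and 7.29 CPM in PS19 mice and 12.4, 10.7, 12.4 and 17.2 CPM in Adrb1+/m;PS19 mice, a 1.57-fold difference (log2 fold change 0.65 ± 0.21). Among PS19 mice m668 stood apart and lay above 3 of the 4 Adrb1+/m;PS19 mice, while the other three were close together and below all of them.

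Lhx8 encodes a LIM homeodomain factor required for the formation of forebrain cholinergic neurons. It had 1.41, 1.93, 0.944 and 1.93 CPM in PS19 mice and 3.96, 4.41, 2.80 and 3.17 CPM in Adrb1+/m;PS19 mice, which is 20 to 32 counts against 50 to 92 and a 2.34-fold difference (log2 fold change 1.23 ± 0.26). The genotypes did not overlap. Gbx1, a homeobox gene of the ventral forebrain and spinal cord, had 0.735, 0.828, 0.755 and 2.05 CPM in PS19 mice and 2.46, 3.59, 1.79 and 2.60 CPM in Adrb1+/m;PS19 mice, a 2.40-fold difference (log2 fold change 1.27 ± 0.35). The PS19 mice were nearly equal apart from m659, which lay above m660. The relative Lhx6 had 24.4, 23.1, 21.5 and 24.2 CPM in PS19 mice and 23.4, 26.1, 21.3 and 25.8 CPM in Adrb1+/m;PS19 mice, a log2 fold change of 0.05 ± 0.08 (edgeR, adjusted p = 0.9996). As a percentage of Lhx6 in the same mouse, Lhx8 was 6.62 ± 1.87 in PS19 and 14.8 ± 2.43 in Adrb1+/m;PS19 mice (SD, n = 4 each) and did not overlap. Because Lhx6 varied little, this ratio mostly restates the difference in Lhx8 and is no separate result.

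Ngfr encodes p75, a low-affinity receptor for neurotrophins, which marks basal forebrain cholinergic neurons more than striatal ones. It had 2.94, 3.93, 2.93 and 6.93 CPM in PS19 mice and 7.32, 8.33, 4.87 and 6.23 CPM in Adrb1+/m;PS19 mice, a 1.61-fold difference (log2 fold change 0.69 ± 0.26). As with Gbx1, m659 was the PS19 mouse within the range of the other genotype. Ecel1, a membrane peptidase of the endothelin-converting enzyme family, was the most abundant member and differed least. Its values were 22.7, 22.9, 12.6 and 26.1 CPM in PS19 mice and 28.1, 16.2, 23.1 and 34.0 CPM in Adrb1+/m;PS19 mice, a 1.21-fold difference (log2 fold change 0.27 ± 0.22) that was about as large as its error.

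**Figure D1:**
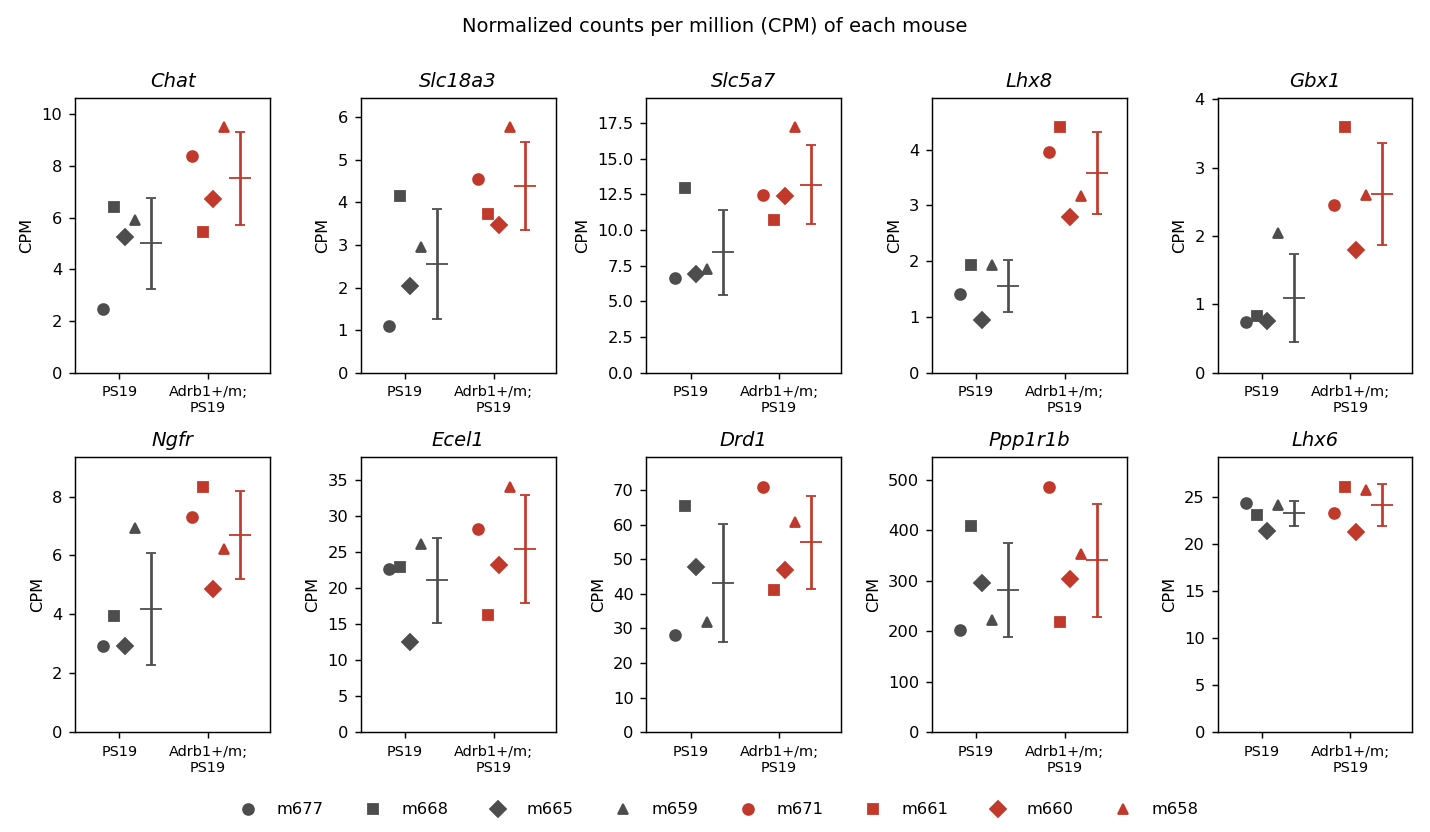
CPM of each mouse (y axis, linear from 0) for the 7 cholinergic neuron genes, for Drd1 and Ppp1r1b of striatal projection neurons and for Lhx6, with PS19 mice in grey and Adrb1+/m;PS19 mice in red. Bars at the right of each group are the mean ± SD (n = 4), and only Lhx8 among the 10 genes shows no overlap, with 0.944 to 1.93 CPM against 2.80 to 4.41 CPM.

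Some mice stood at the same end for several members. Of the PS19 mice, m677 had the lowest CPM of all 8 mice for 4 of the 7 genes and m665 for the other 3. Of the Adrb1+/m;PS19 mice, m658 was highest for 4 genes (Chat, Slc18a3, Slc5a7 and Ecel1) and m661 for 3 (Lhx8, Gbx1 and Ngfr), and m671 was among the 4 highest mice for all 7. The mouse m661 was thus highest for both transcription factors and for Ngfr, yet sixth for Chat and seventh for Ecel1.

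The 21 pairs of members had Pearson correlations of log2 CPM between 0.35 and 0.96 over the 8 mice, with a mean of 0.64. The genes were chosen by this covariation and share libraries and a genotype difference, so the correlations carry no test. With the genotype means removed, the mean was 0.41, and 19 of the 21 pairs stayed above 0. With Ecel1 aside, the pairs are described in 2 blocks that were noticed in these data and are not sharply divided. Chat, Slc18a3 and Slc5a7 correlated at 0.79 to 0.95, and at 0.65 to 0.92 within the genotypes (Spearman 0.88 to 0.95 over all mice), and at 0.74 to 0.90 without m677 and m665. Lhx8, Gbx1 and Ngfr formed the other block: Gbx1 and Ngfr correlated at 0.96 both over all mice and within the genotypes, Lhx8 and Ngfr at 0.87 and 0.79, and Lhx8 and Gbx1 at 0.89 and 0.65 (Spearman 0.86 to 0.90 over all mice). Without m677 and m665 these were 0.92, 0.66 and 0.79. Across the blocks the values within the genotypes were lower, from -0.16 for Slc5a7 and Gbx1 to 0.48 for Slc18a3 and Ngfr, and the correlations of Gbx1 and Ngfr with the transmitter genes over all mice (0.47 to 0.70) rested on m677 and m665, without which they were -0.32 to 0.11. Lhx8 was less clearly placed: its correlations with Chat, Slc18a3 and Slc5a7 were 0.56, 0.72 and 0.71 over all mice and 0.11, 0.42 and 0.24 within the genotypes. Without m665 and m661, its own farthest mice, they were 0.85, 0.79 and 0.75. Other mice were left out here than for Gbx1 and Ngfr, so these values cannot be set beside theirs. Ecel1 was placed in neither block, with 0.17 to 0.49 within the genotypes, although by rank over all mice it followed Chat (Spearman 0.86) and, less closely, Slc18a3 and Slc5a7 (both 0.67).

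**Figure D2:**
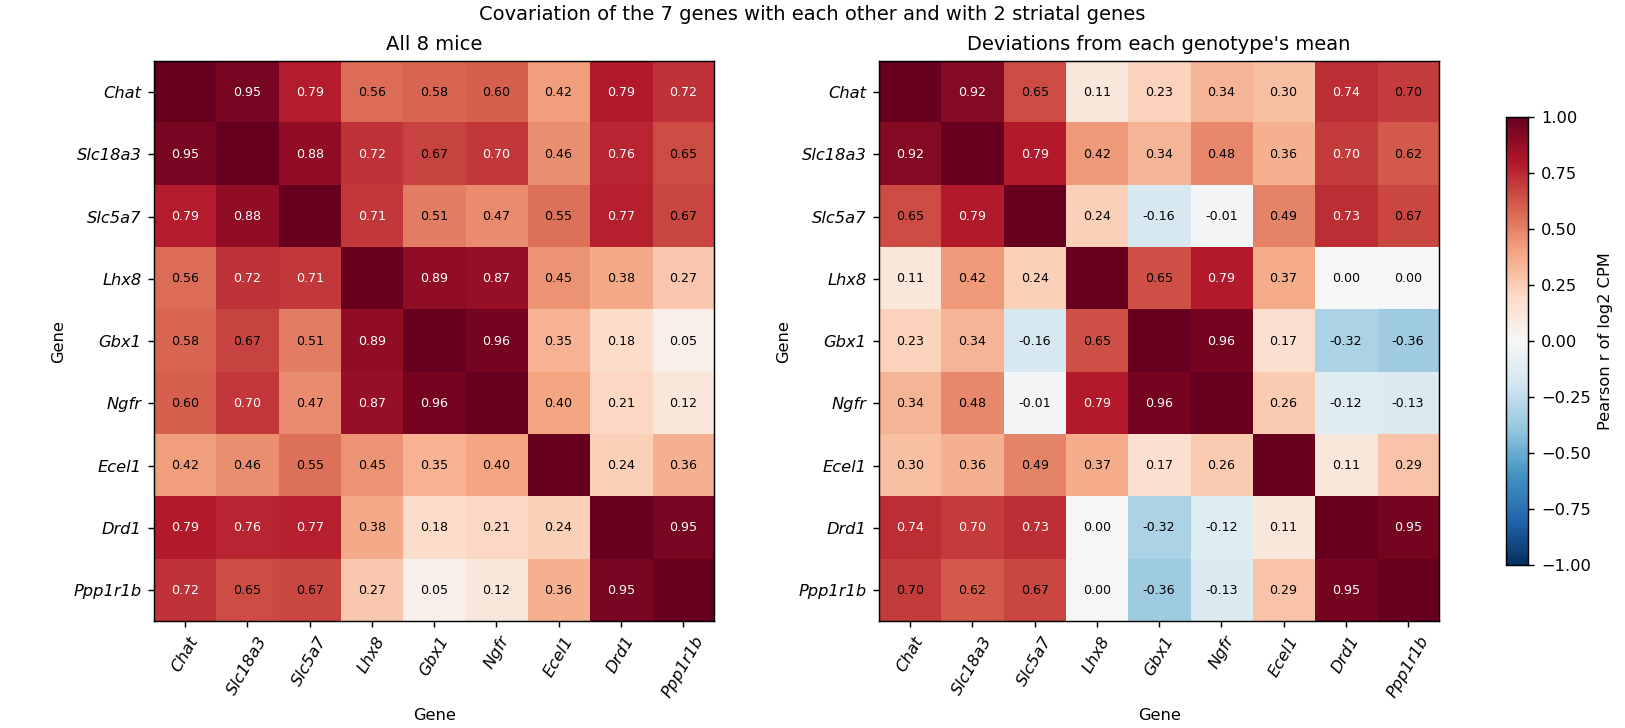
Pearson r of log2 CPM (prior count 2) for each pair of the 7 genes, Drd1 and Ppp1r1b, over all 8 mice (left) and for deviations from each genotype's mean (right), with colour from -1 (blue) to 1 (red). Chat, Slc18a3 and Slc5a7 form 1 red block that extends to Drd1 (0.70 to 0.74 on the right), and Lhx8, Gbx1 and Ngfr another that does not (-0.32 to 0.00).

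The striatum adjoins both the cortex and the basal forebrain, and its projection neurons express Drd1, the D1 dopamine receptor, and Ppp1r1b, which encodes DARPP-32. Drd1 had 28.0, 65.3, 47.9 and 31.7 CPM in PS19 mice and 71.0, 41.2, 46.8 and 60.7 CPM in Adrb1+/m;PS19 mice, a log2 fold change of 0.34 ± 0.23 (edgeR, adjusted p = 0.9996). Ppp1r1b had 202, 408, 295 and 223 CPM in PS19 mice and 486, 218, 303 and 354 CPM in Adrb1+/m;PS19 mice, a log2 fold change of 0.27 ± 0.23 (edgeR, adjusted p = 0.9996). Both were highest in m671 and m668 and lowest in m677, and they correlated with each other at 0.95, and each differed more than 2-fold between PS19 mice.

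The transmitter genes followed Drd1 over the 8 mice, at Pearson correlations of 0.79 for Chat (Spearman 0.69), 0.76 for Slc18a3 (Spearman 0.76) and 0.77 for Slc5a7 (Spearman 0.76). Without m677 and m671, the mice farthest from the median of Drd1, these were 0.53, 0.51 and 0.70. For the other block the correlations with Drd1 were 0.38 for Lhx8, 0.18 for Gbx1 and 0.21 for Ngfr, and -0.014, -0.38 and -0.46 without those mice. Ecel1 stood at 0.24 and 0.19. The difference between the blocks in this respect was not tested. It showed most in m661, with 4.41 CPM of Lhx8 and 3.59 CPM of Gbx1 beside 41.2 CPM of Drd1, and in m668, with 0.828 CPM of Gbx1 beside 65.3 CPM of Drd1.

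**Figure D3:**
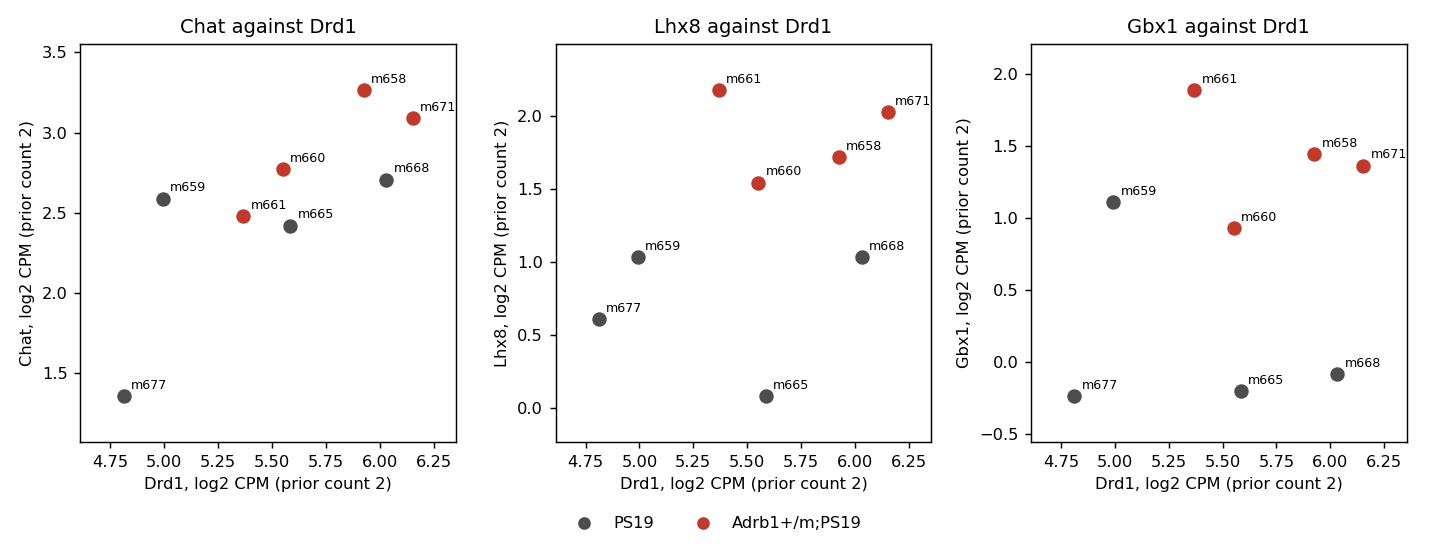
Log2 CPM (prior count 2) of Chat, Lhx8 and Gbx1 (y axes) against that of Drd1 (x axis) in each of the 8 mice, labelled by name. Chat climbs with Drd1 (Pearson r 0.79), whereas for Lhx8 (0.38) the Adrb1+/m;PS19 mice lie above the PS19 mice along the Drd1 axis and for Gbx1 (0.18) PS19 mouse m659 lies among them.

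Relative to Drd1 in the same mouse, none of the 7 members separated the genotypes. Chat was 12.0 ± 4.47% of Drd1 in PS19 and 13.8 ± 1.63% in Adrb1+/m;PS19 mice (SD, n = 4 each), and Lhx8 was 4.01 ± 1.88% and 6.87 ± 2.57%. The 16 genes of a list of striatal projection neuron genes, Drd1 and Ppp1r1b among them, were all higher in Adrb1+/m;PS19 mice (median log2 fold change 0.31), and their summed level overlapped widely, at 1379 to 2631 CPM in PS19 and 1469 to 2913 CPM in Adrb1+/m;PS19 mice. Of the 16, 3 had an unadjusted p-value under 0.05: Six3, a homeobox factor (log2 fold change 0.59 ± 0.21), Pdyn, the precursor of dynorphins (0.31 ± 0.11), and Tac1, the precursor of substance P (0.47 ± 0.20), and none passed after adjustment (edgeR, adjusted p = 0.9996 at the least). Among all genes tested, 2.8% fell under the same unadjusted threshold, in either direction. The 3 of 16 depended on single mice: it became 14 without m668, 10 without m661 and 0 without m658. Leaving out any other mouse gave 1 to 4, and keeping every gene of at least 1 count gave 14. The list's median was 0.15 without m671 and 0.57 without m668.

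With the mean log2 level of the striatal list in each mouse as a covariate, the log2 fold changes of the blocks moved further apart. That was in large part set beforehand by how each block correlated with Drd1 within the genotypes, so it is no separate result. The log2 fold changes of the transmitter genes were then smaller, 0.35 ± 0.23 (standard error) for Chat, 0.58 ± 0.29 for Slc18a3 and 0.46 ± 0.17 for Slc5a7. Those of the other block were as large as before or larger, 1.26 ± 0.29 for Lhx8, 1.5 ± 0.36 for Gbx1 and 0.81 ± 0.28 for Ngfr. Ecel1 stood at 0.15 ± 0.24, and Drd1, whose own level is part of the covariate, at 0.05 ± 0.09. With the mean level of 12 genes of cortical excitatory neurons as the covariate, Lhx8, Gbx1 and Ngfr had 1.26 ± 0.31, 1.5 ± 0.41 and 0.86 ± 0.31, the transmitter genes 0.33 ± 0.19 to 0.54 ± 0.36, and Ecel1 changed sign, to -0.13 ± 0.20. The differences between these fits were not tested.

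**Figure D4:**
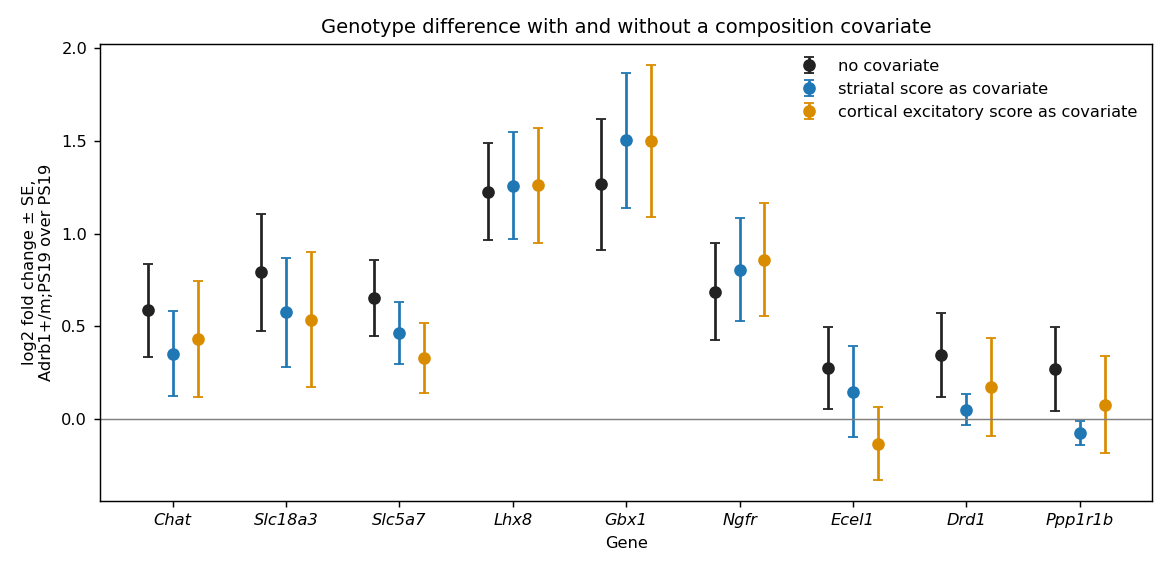
Log2 fold change in Adrb1+/m;PS19 over PS19 mice (y axis, points ± standard error) of the 7 genes, Drd1 and Ppp1r1b, with no covariate (black), with the striatal score (blue) and with the cortical excitatory score (orange) of each mouse in the fit. Chat, Slc18a3 and Slc5a7 move toward 0 with either covariate, and Lhx8, Gbx1 and Ngfr do not.

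Other genes of the basal forebrain cholinergic program were less uniform. Of 9 listed, 8 were tested, 7 were higher (median log2 fold change 0.50), and 3 had an unadjusted p-value under 0.05, Slc10a4 and Isl1 among them. Slc10a4, a vesicular protein of cholinergic and monoaminergic neurons, had 1.84, 4.28, 3.07 and 2.71 CPM in PS19 mice and 6.30, 3.64, 4.09 and 7.36 CPM in Adrb1+/m;PS19 mice (log2 fold change 0.85 ± 0.27). Isl1, a LIM homeodomain factor that acts with Lhx8 and is also present in striatal neurons, had 1.16, 4.21, 2.45 and 1.75 CPM in PS19 mice and 3.30, 3.45, 3.69 and 6.00 CPM in Adrb1+/m;PS19 mice (0.79 ± 0.33). As for the transmitter genes, m658 was highest in both. PS19 mouse m668 lay above m661 and m660 in both genes, and above m671 as well for Isl1. No gene of the list passed after adjustment (edgeR, adjusted p = 0.9996 at the least). Zic2, a zinc finger factor of the septum, was the 1 lower gene (-0.07 ± 0.12), and Gbx2, a relative of Gbx1, had 2 to 8 counts per mouse and was not tested.

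The lists of acetylcholine breakdown and choline supply and of acetylcholine receptors had median log2 fold changes nearer 0. Of 9 genes of acetylcholine breakdown and choline supply, 5 were higher and 4 lower (median log2 fold change 0.05). The 1 gene with an unadjusted p-value under 0.05 was Chkb, a choline kinase (log2 fold change 1.06 ± 0.38), without overlap between the genotypes but counted only 5 to 28 times per mouse and sharing 50.7% of its exonic bases with another annotated gene on the same strand, so that its count is uncertain. Of 14 acetylcholine receptor genes, 12 were tested, 5 were higher, 7 were lower and none had an unadjusted p-value under 0.05. The most abundant, Chrm1, the main muscarinic receptor of cortical pyramidal neurons, had a log2 fold change of -0.01 ± 0.06, and the list's median was -0.013. Among 11 tested genes of neurotrophins and their receptors the median was 0.03, and 1 gene was higher and 1 lower at an unadjusted p-value under 0.05. The lower gene was Bdnf, the brain-derived neurotrophic factor (-0.20 ± 0.09), and 14.4% of the exonic bases of Bdnf are shared with an antisense gene.

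**Figure D5:**
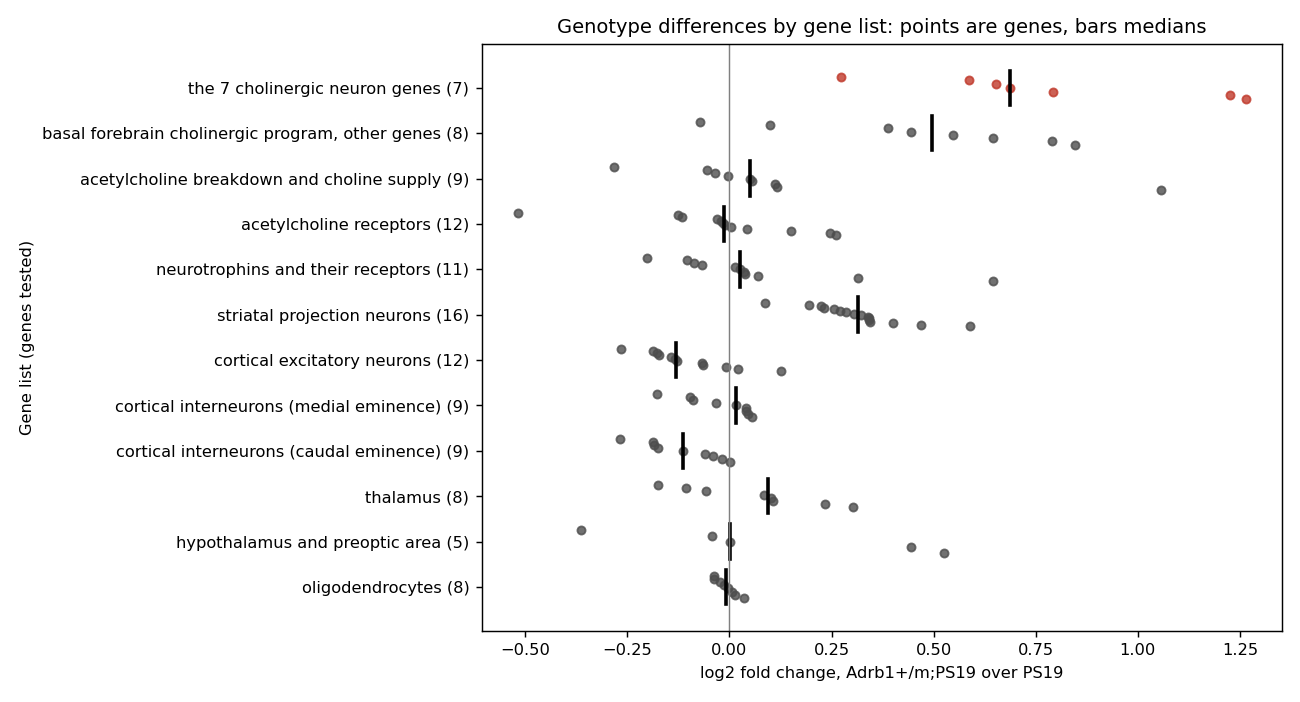
Log2 fold change in Adrb1+/m;PS19 over PS19 mice (x axis) of each tested gene (points) in the 7 cholinergic neuron genes (red) and in 11 further lists (grey), with the median of each list as a bar and its number of tested genes in parentheses. The medians are 0.69 for the 7 genes, 0.50 for other genes of their program and 0.31 for striatal genes, and those of the other lists lie between -0.13 and 0.09 with this filter on low counts.

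Markers of other cells that a cortical dissection could hold had medians nearer 0 among the genes that passed the filter. Of 12 cortical excitatory neuron genes 10 were lower (median log2 fold change -0.13), with summed levels of 1859 to 2123 CPM in PS19 and 1729 to 1940 CPM in Adrb1+/m;PS19 mice. For 3 of them the unadjusted p-value was under 0.05, Neurod6, a transcription factor of pyramidal neurons (-0.27 ± 0.08), Slc17a7, the vesicular glutamate transporter of the cortex (-0.19 ± 0.07), and, just under that threshold, Tbr1, a factor of deep-layer neurons (-0.13 ± 0.06). Interneurons from the caudal ganglionic eminence include the cortical neurons that contain Chat. Their list was lower in 8 of 9 genes with a median of -0.11, and Vip (-0.19 ± 0.08) and Cck (-0.19 ± 0.07) had an unadjusted p-value under 0.05. Cck averaged 312 CPM over the 8 mice against 39.9 CPM for Vip, and bulk counts do not show which cells it came from. The list of interneurons from the medial eminence had a median of 0.016, with Npy lower (-0.18 ± 0.07) at the same threshold. No gene of these lists passed after adjustment (edgeR, adjusted p = 0.9996 at the least).

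Thalamic genes had a median of 0.09 (5 of 8 higher, Slc17a6 at 0.10 ± 0.12) and oligodendrocyte genes one of -0.0081 (3 of 8 higher, Mbp at -0.04 ± 0.09), none with an unadjusted p-value under 0.05. Of 12 hypothalamic and preoptic genes 5 were tested, with a median of 0.00052 that depended on the filter (0.49 with every gene of at least 1 count), and the summed level of the 12 was 7.60 to 22.5 CPM in PS19 and 5.08 to 30.7 CPM in Adrb1+/m;PS19 mice. Of 9 genes of cholinergic neurons in the habenula, hindbrain and spinal cord none reached the filter. Of the 9, 4 were at 0 counts in all 8 mice, among them Mnx1, Hoxb3 and Hoxb5, which mark hindbrain and spinal cord. The others had a few counts, and the summed level of the 9 was 0.122 to 1.59 CPM in PS19 and 0.420 to 1.23 CPM in Adrb1+/m;PS19 mice. The part of striatal or other tissue in the members' difference was not tested, and the fits with a covariate are only a description.

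The genes whose log2 CPM was most like the mean standardized pattern of the 7 members, among 15767 others with a mean of at least 1 CPM, were Hadha, Entpd2, Pcdhb14, Smg8, Cand1, Sesn3, Pcdhb13 and Robo1, with Pearson correlations of 0.98 down to 0.94 over the 8 mice. Their own log2 fold changes ran from 0.05 for Cand1 to 0.34 for Pcdhb14. In all, 26 genes reached 0.9, and the median of all those ranked was 0.0012. With so many genes and only 8 mice, some correlations this high arise by chance. How many do was not tested, so nothing is read from these names. Of the cholinergic genes outside the members, Slc10a4 ranked at place 62 (0.85) and Isl1 at place 234 (0.75), while Drd1 stood at place 987 (0.57) and Adrb1, the mutated gene, at place 9250 (-0.09).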

How the data were processed

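Cortical RNA of 4 PS19 and 4 Adrb1+/m;PS19 mice was measured by paired-end RNA-seq, 1 library per mouse. The authors aligned clean reads to GRCm38 with HISAT2 2.0.5, counted them per gene with featureCounts 1.5.0-p3 and deposited raw counts with gene names, coordinates and gene lengths in bases. Strand and multiple-mapping settings are not given in the sources used here. Groups were taken from the genotype labels.

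Counts were filtered with filterByExpr, scaled with TMM and compared with edgeR 4.0.16 (glmQLFit, glmQLFTest, 2-sided, no covariates, Benjamini-Hochberg adjustment over 17195 genes) in R 4.3.3. A standard error is the log2 fold change divided by the square root of F. Log2 CPM used a prior count of 2. To score a list, each gene's log2 CPM was centred on its average over 8 mice, and the centred values were averaged within each mouse. The fits were tested on simulated counts. Mice of a genotype differed by more than sampling noise (chi-square per degree of freedom 4.5 to 9.2).

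The members and the 12 lists were chosen with earlier results of these data known. Named were the members, Drd1, Ppp1r1b, Lhx6, Adrb1, up to 4 genes of each list with the smallest unadjusted p under 0.05 (otherwise its most abundant gene), and the 8 genes most like the members. Gbx2, Zic1, Zic2, Zic4, Mnx1, Hoxb3, Hoxb5, Oxt, Sim1 and Otp were added after their values were seen. Values of some list genes are not reported here. Alternatives were DESeq2 1.42.0, limma-voom (limma 3.58.1), DESeq2's size factors, 3 other choices of genes, 2 covariates and each mouse left out. Depth limits the precision of genes with few counts. Promoter windows came from RefSeq and exons from GENCODE vM21, both GRCm38.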

Additional observations from a re-analysis of the deposited data

Results flagged for a closer look

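In PS19 mice, Slc5a7 in m668 had 12.9 CPM, far above the 6.61 to 7.29 CPM of the other PS19 mice (0.893 of the range lay in that gap). Gbx1 in PS19 mouse m659 had 2.05 CPM against 0.735 to 0.828 CPM (0.929 of the range). These were 2 of 48 groups of 4 mice examined, each a gene, a list score or the library totals in 1 genotype, and about 1 in 20 such groups is given by chance. In m668, Drd1 was also the highest of its genotype, at 65.3 CPM, and in m659 Ngfr was, at 6.93 CPM; the part of tissue composition in either value was not tested.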

How the results depend on the processing

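No paired analysis was possible because GEO gives neither replicate numbers nor litters for these mice, and the replicate numbers used here are only names. The sign of all 7 members' log2 fold changes was the same in every alternative run, except that Ecel1 was below 0 with the cortical excitatory score as covariate (-0.13). With each mouse left out in turn, the members' median log2 fold change ran from 0.55 to 0.92, their mean pairwise correlation (a check added after the data were seen) from 0.55 to 0.74, and the number of genes at an unadjusted p-value under 0.05 from 431 to 674 (after adjustment 1 gene without m661 and 2 without m658, no member). The members without overlap ran from 1 to 3: Slc18a3 and Slc5a7 joined Lhx8 without m668 and Gbx1 and Ngfr without m659 (3 each), Chat without m661 and Gbx1 without m660 (2 each). The members with an unadjusted p-value under 0.05 fell from 6 to 3 without m677, to 4 without m665 or m658, to 5 without m671, to 4 with the striatal covariate and to 3 with the cortical one. With all genes of at least 1 count, 1366 genes in place of 481 had an unadjusted p-value under 0.05 and 66 in place of 0 an adjusted one, 3 members among them; that fit tests 33614 genes. The median of other genes of the cholinergic program was 0.30 in place of 0.50 with the cortical covariate. That of the cortical excitatory list was 0.016 in place of -0.13 with its own score as covariate, as such a fit must give, and that of the striatal list -0.011 with its own score. Over left-out mice, the median of interneurons from the medial eminence ran from -0.047 (without m665; -0.039 without m668) to 0.021 and that of hypothalamic genes from -0.0097 to 0.69 (without m661), with 0.49 both under DESeq2 and with all genes of at least 1 count. Striatal genes ran from 0.15 without m671 to 0.57 without m668. Counts of 12 to 75 per mouse limit Gbx1 most.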

Other observations

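Within the genotypes, Zic1 and Zic4, zinc finger factors of the septum and other midline regions, varied against the 7 members: the correlation of their deviations with the members' mean pattern was -0.64 and -0.79 over the 8 mice. With the genotype means kept, the correlations were -0.036 and 0.050. Both genes had higher means in Adrb1+/m;PS19 mice, with log2 fold changes of 0.39 and 0.55. Zic1 had 28.5, 17.4, 19.3 and 16.0 CPM in the PS19 mice and 14.9, 30.9, 34.6 and 25.6 CPM in the Adrb1+/m;PS19 mice, so it was lowest in m671, where all 7 members were among the 4 highest. In m661, which was highest for Lhx8, Gbx1 and Ngfr, Zic1 was high too, at 30.9 CPM. Among hypothalamic genes, Avp, the vasopressin precursor, was counted between 8 and 250 times per mouse. Its log2 fold change of 0.53 had a standard error of 0.89. Avp was highest in m671 (250 counts) and m659 (197 counts), a mouse of each genotype. Oxt (53 and 17 counts), Sim1 (14 and 18) and Otp (28 and 15) were also highest in these mice, but the rest of the list was not. Among PS19 mice, m659 was also highest for Gbx1 and Ngfr. The part of hypothalamic tissue in these values was not tested.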
